A study of Mus musculus with 8 samples.

Results

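The genes described here are 32 genes of cholesterol and fatty acid synthesis, out of 24583 genes measured on 8 arrays of embryonic mouse lung at E14.5, in the branching phase of lung development. They were chosen by symbol and by their known roles. They comprised 6 enzymes of the mevalonate arm, 11 enzymes that lead from squalene to cholesterol, 9 genes of the fatty acid arm, 5 regulators of the sterol regulatory element binding proteins (SREBPs) and 1 sterol carrier. All 32 were on the array. The titles gave 4 arrays as experimental and 4 as control, numbered 1 to 4 in each group. According to the study, embryos of the experimental group were Rosa26rtTA/rtTA; Tg(tet(o)sFgfr2b)/+, in which doxycycline switches on a secreted, soluble Fgfr2b that captures the ligands of this receptor. Control littermates were Rosa26rtTA/rtTA; +/+. Both groups carried the reverse tetracycline transactivator, which is driven from a locus active in nearly all cell types, so induction was not limited to 1 cell type, and the dams of both received 0.0015 mg doxycycline per g body weight 9 h before collection. Each sample was the left lobe of the lung, a mixture of all its cell types. In such tissue, fewer cells of a type and less RNA per cell cannot be told apart.

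Cholesterol is built from acetyl-CoA, which the mevalonate arm turns into isoprenoid units and finally farnesyl diphosphate. A second series of enzymes joins farnesyl units to squalene, closes the ring to lanosterol and trims lanosterol to cholesterol. Fatty acids are made from the same acetyl-CoA and are then elongated and desaturated. Both arms are under transcriptional control of SREBPs, which are held in the endoplasmic reticulum by Scap and the Insig proteins while sterols are plentiful, and are cut and sent to the nucleus when sterols run low. In the lung, these lipids go into the membranes of growing cells and, late in gestation, into surfactant, which alveolar type 2 (AT2) cells secrete.

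The values are normalized log2 signals, 1 per gene from its brightest spot, and a difference of 1 is a doubling. Signals of different genes depend on their probes and were not compared with each other. Some lung markers, picked from lists of markers by cell type for their highest mean signal, were high on all 8 arrays. Sftpc, the surfactant protein gene of distal lung epithelium, lay between 14.37 and 15.99, Krt8 and Krt18, keratins of simple epithelia, between 12.79 and 13.79, and the mesenchymal collagen genes Col1a1, Col1a2 and Col3a1 between 14.35 and 15.74. The upper values of Sftpc lay close to the highest signal of any spot. Other markers of these cell types were dim, below the median of 5.79 over all genes. Slc34a2, a marker of AT2 cells, lay between 3.085 and 4.648, and Scgb1a1, a marker of airway epithelium, between 3.227 and 5.677. Sftpa1 lay between 4.089 and 4.88 in arrays numbered 1 and 2 and between 8.447 and 8.881 in arrays numbered 3 and 4. The titled groups were not separated by the direct target of the pathway. For Etv5, an Ets factor induced by Fgf10 in distal epithelium, experimental arrays 1 to 4 gave 10.42, 10.43, 13.11 and 13.26, and control arrays 1 to 4 gave 10.09, 10.57, 13.18 and 13.26. Arrays numbered 1 and 2 were thus low and arrays numbered 3 and 4 high in both titled groups. For this reason the lipid genes are described both by titled group and by title number. Etv5 therefore goes against the titles, which may not give the genotype of every lung, and a difference between titled groups may not be one between genotypes. The study reported Etv5, Etv4 and Sox9, genes of distal epithelium, as lower in experimental than in control lungs. In size, its log2 changes equal the number difference found here and not the titled difference. Numbers 3 and 4 minus numbers 1 and 2 gave 2.83, 1.87 and 1.98. Titled experimental minus titled control gave 0.03, −0.30 and −0.33. The sources used here do not say what the number stands for, and the number was not tested. Over all genes, no gene passed an adjusted p of 0.05 between the titled groups (limma, smallest adjusted p = 0.896), and experimental and control below mean only the arrays so titled.

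No gene of cholesterol or fatty acid synthesis passed limma's test between the titled groups. The count was 0 of 32, beside 0.00% of all genes, and every one of the 32 had an adjusted p of 0.9998. Without adjustment, 2 of the 32, Lss and Scd1, had a p under 0.05, which is 6.25% beside 3.56% of all genes. For most of the genes the spread was small enough to bound the difference between the titled groups, which may not be one between genotypes. The standard errors (SE) of the differences ran from 0.09 to 0.469 with a median of 0.133, and for 22 of the 32 the 95% confidence interval (CI) lay wholly between −0.5 and 0.5. Differences are given throughout as experimental minus control.

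**Figure D1:**
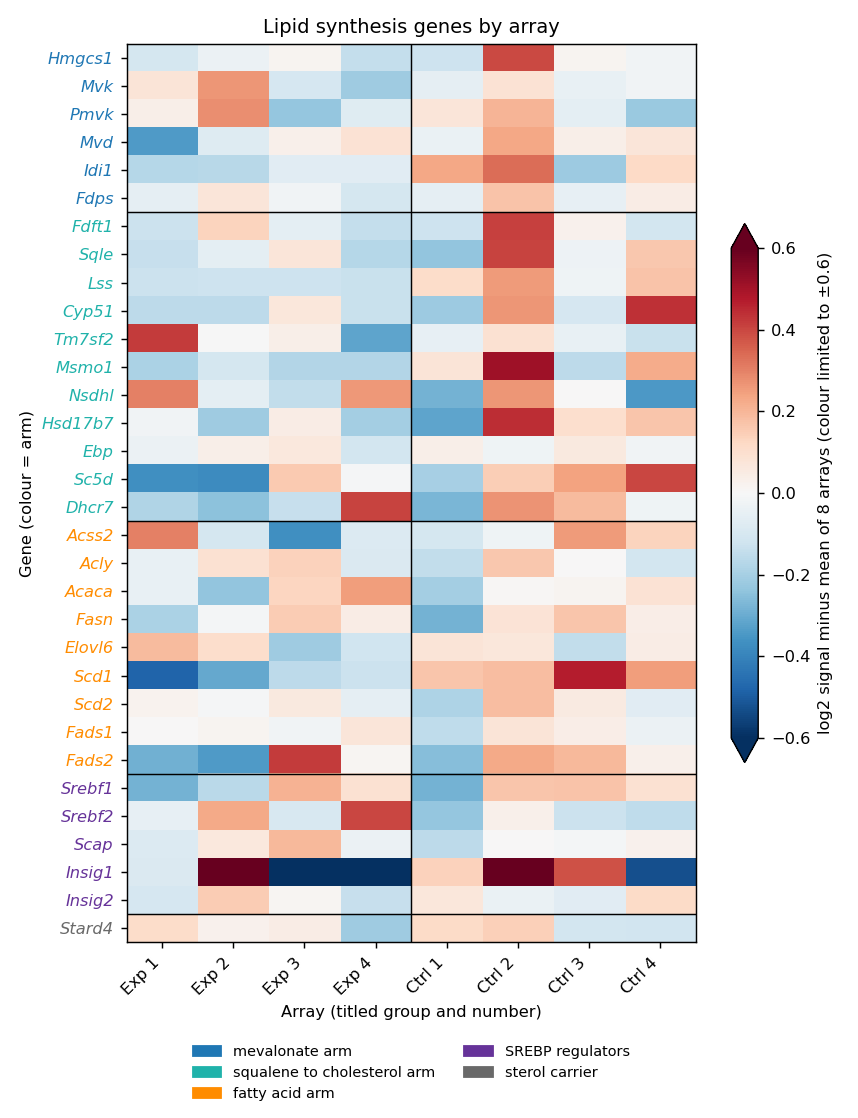
Log2 signal of each of the 32 genes (rows, names coloured by arm) in each of the 8 arrays (columns), as the deviation from the mean of the 8 arrays, with colours limited to ±0.6. The column of control 2 is mostly red over the sterol genes, where 9 of 17 enzymes were highest, while Insig1 has the widest range, 2.23.

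Sterol enzymes leaned lower in the arrays titled experimental, though not past the test. In sign, 13 of 17 were lower and 4 higher, with a median difference of −0.135 against 0.004 over all genes. The mevalonate arm had 4 of 6 lower with a median of −0.095, and the squalene to cholesterol arm 9 of 11 lower with a median of −0.149. This lean rested largely on 1 array: without control 2, the median of the 17 sterol enzymes was −0.037. In the fatty acid arm 5 of 9 were lower and 4 higher, with a median of −0.002, and the difference between the arms was not tested. Both values moved little with the choice of spot, being −0.116 and −0.002 when all spots of a gene were averaged. Between the titled groups, markers of some other cell types also leaned lower and those of others leaned higher. Of the cardiac muscle markers 4 of 5 were lower, with a median of −0.455 (Myh6 −0.52, 95% CI −0.77 to −0.27), and their mean ran from 9.29 to 9.68 in the experimental and from 9.68 to 9.89 in the control arrays. Smooth muscle markers were lower in 5 of 5, with a median of −0.151 and means of 10.74 to 11.36 and of 10.89 to 11.58. Airway and basal markers were lower in 7 of 7, with a median of −0.216 and means of 7.67 to 7.99 and of 7.75 to 9.39. Control 1 alone reached 9.39, with Krt5 at 8.66 and Krt15 at 11.34, while the other controls had means of 7.75 to 8.17. Distal epithelium and AT2 markers were lower in 6 of 10 (median −0.145). Markers were higher in 7 of 7 for mesenchyme (median 0.052), 6 of 7 for all epithelium (0.089) and 4 of 5 for endothelium (0.151). They were also higher in 4 of 4 for proliferation, 3 of 4 for leukocytes and 3 of 4 for erythroid cells. None of these markers passed, and their part in the values of the lipid genes was not tested.

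**Figure D2:**
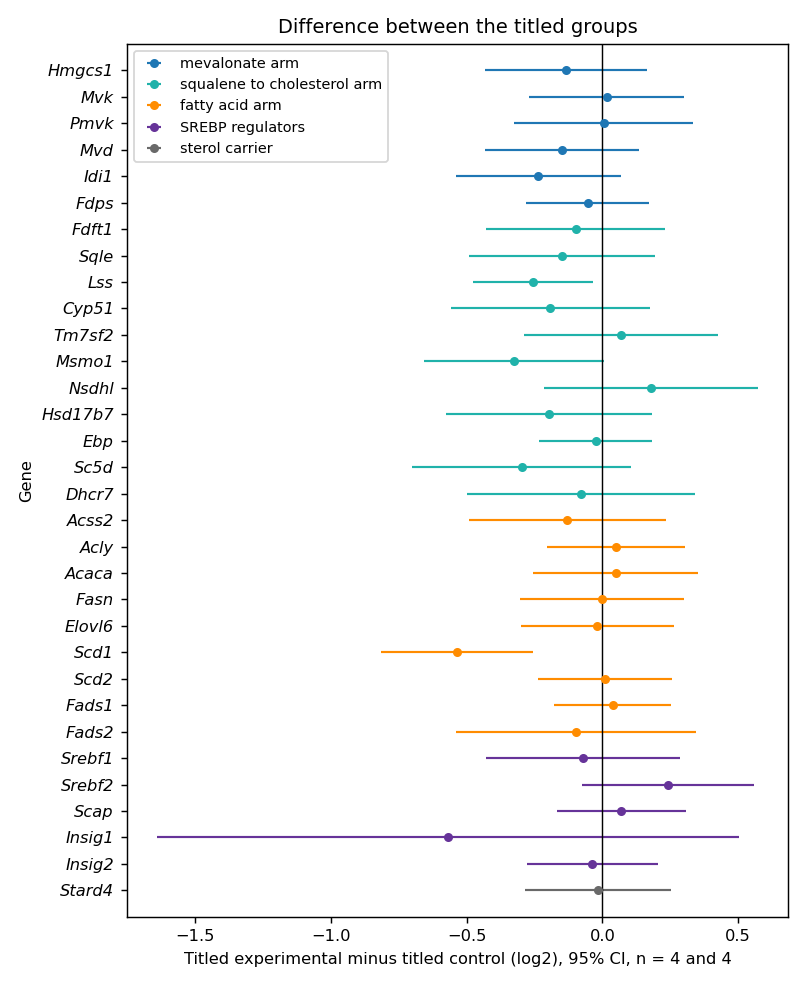
Difference between titled experimental and titled control arrays for each gene on the log2 scale, with the 95% CI of limma's fit (n = 4 and 4) and colour by arm. The intervals of Lss and Scd1 lie below 0, that of Insig1 is the widest, from −1.64 to 0.50, and no gene passed after adjustment.

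In the mevalonate arm, the titled groups of all 6 genes overlapped, and the range over the 8 arrays ran from 0.277 for Fdps to 0.57 for Mvd. Hmgcs1, which condenses acetyl-CoA units into HMG-CoA at the entry of the pathway, had signals of 12.42, 12.48, 12.53 and 12.38 in experimental arrays 1 to 4 and of 12.39, 12.92, 12.54 and 12.50 in control arrays 1 to 4. The other arrays lay close together and control 2 stood above them, so the groups overlapped and their difference was −0.135 (95% CI −0.43 to 0.16). Mvk, the kinase that phosphorylates mevalonate, ranged from 11.48 in experimental 4 to 11.96 in experimental 2, with a difference of 0.01 (95% CI −0.27 to 0.30). Pmvk, the kinase of the next step, measured 11.17, 11.41, 10.90 and 11.06 in the experimental arrays and 11.21, 11.34, 11.07 and 10.91 in the controls. Its titled groups overlapped almost fully, with a difference of 0.00 (95% CI −0.33 to 0.34). Mvd, which decarboxylates the product to isopentenyl diphosphate, was lowest in experimental 1 at 7.46 and highest in control 2 at 8.03, and differed by −0.15 (95% CI −0.43 to 0.14). Idi1, the isomerase of isopentenyl diphosphate, read 10.22, 10.22, 10.32 and 10.32 in experimental arrays 1 to 4 and 10.62, 10.73, 10.17 and 10.51 in control arrays 1 to 4. All experimental values of Idi1 were below 3 of the controls, but control 3 was the lowest of all 8 arrays, and the difference of −0.24 had an interval from −0.54 to 0.07. Fdps, which assembles farnesyl diphosphate, stayed within 12.05 to 12.33 and differed by −0.05 (95% CI −0.28 to 0.17).

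Among the enzymes from squalene to cholesterol, Lss and Msmo1 had the clearest separation by title. Lss, the cyclase that closes squalene epoxide into lanosterol, was nearly constant in the experimental arrays, at 8.54, 8.54, 8.54 and 8.53. It measured 8.77, 8.92, 8.64 and 8.84 in control arrays 1 to 4. The groups did not overlap, the gap was 0.10, and the difference was −0.25 (95% CI −0.47 to −0.03, adjusted p = 0.9998, limma). Its other 2 spots also had lower experimental means, by −0.32 and −0.26, but their groups overlapped. Msmo1, which oxidizes methyl groups off the sterol ring, had signals of 10.59, 10.68, 10.61 and 10.61 in the experimental arrays and of 10.86, 11.29, 10.62 and 11.01 in the controls. Only control 3 lay among the experimental values of Msmo1. The difference was −0.32 (95% CI −0.66 to 0.01), and all 3 spots of the gene were lower in the experimental arrays in mean, by −0.32, −0.38 and −0.96. When the spots of each gene were averaged, Msmo1 did not overlap between the titled groups and Lss did.

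The first enzymes of this arm overlapped between the titled groups. Fdft1, the squalene synthase, gave 10.86, 11.13, 10.94 and 10.85 in the experimental arrays and 10.87, 11.40, 11.02 and 10.88 in the controls, which differed by −0.10 (95% CI −0.43 to 0.23). In each of the 4 numbers the control was the higher for Fdft1, by the most in number 2 (−0.275). Sqle, the squalene epoxidase, ran from 10.70 in control 1 to 11.34 in control 2, so both extremes were controls, and differed by −0.15 (95% CI −0.49 to 0.19). Cyp51, the demethylase of lanosterol, measured 8.70, 8.70, 8.93 and 8.72 in the experimental arrays and 8.64, 9.12, 8.76 and 9.29 in the controls. Cyp51 was therefore high in controls 2 and 4 and low in controls 1 and 3, and the difference of −0.19 had an interval from −0.56 to 0.17.

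Of the reductases and dehydrogenases that follow, Tm7sf2 and Nsdhl were the only enzymes of this arm with higher experimental means, neither past the test. Tm7sf2, a sterol reductase, ran from 8.44 in experimental 4 to 9.17 in experimental 1, with a difference of 0.07 (95% CI −0.29 to 0.43). Nsdhl, a sterol dehydrogenase, measured 8.49, 8.13, 8.04 and 8.45 across the experimental arrays and 7.91, 8.45, 8.19 and 7.84 across the controls. Neither title nor number ordered these values of Nsdhl, and their difference was 0.18 (95% CI −0.22 to 0.57). Hsd17b7, a ketoreductase of the same complex, measured 9.10, 8.90, 9.16 and 8.91 in the experimental arrays and 8.80, 9.56, 9.22 and 9.28 in the controls, with the highest and the lowest array both among the controls and a difference of −0.20 (95% CI −0.57 to 0.18). Ebp, the isomerase that shifts a double bond in the ring, varied least of the 32 genes, with a range of 0.173 over the 8 arrays and a difference of −0.02 (95% CI −0.23 to 0.18).

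Sc5d and Dhcr7 act late in the arm, and neither separated the titled groups. Sc5d, a desaturase of the sterol ring, had signals of 8.48, 8.47, 9.01 and 8.84 in experimental arrays 1 to 4 and of 8.65, 9.00, 9.09 and 9.25 in control arrays 1 to 4. In each number the control was the higher, and in each titled group arrays 3 and 4 had a higher mean than arrays 1 and 2. The difference between titled groups was −0.30 (95% CI −0.70 to 0.11), and the second spot of Sc5d differed by −0.09. Dhcr7, the reductase that yields cholesterol, measured 7.06, 6.997, 7.11 and 7.65 in the experimental arrays and 6.97, 7.51, 7.43 and 7.22 in the controls, a difference of −0.08 (95% CI −0.50 to 0.34). One experimental array, number 4, was the highest of all, and the other 3 lay near the lowest control.

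In the fatty acid arm Scd1 alone did not overlap between the titled groups. Acss2, which makes acetyl-CoA from acetate, ranged from 6.13 in experimental 3 to 6.80 in experimental 1 and differed by −0.13 (95% CI −0.49 to 0.23). Acly, which makes it from citrate, stayed within 11.81 to 12.12 and differed by 0.05 (95% CI −0.20 to 0.30). Acaca, the carboxylase that commits acetyl-CoA to fatty acid synthesis, measured 10.51, 10.32, 10.69 and 10.81 in experimental arrays 1 to 4 and 10.35, 10.56, 10.57 and 10.64 in control arrays 1 to 4. The titled groups of Acaca overlapped, with a difference of 0.05 (95% CI −0.26 to 0.35). Fasn, the fatty acid synthase, had signals of 13.25, 13.42, 13.59 and 13.48 in the experimental arrays and of 13.15, 13.52, 13.60 and 13.47 in the controls. Same-numbered arrays of Fasn were within 0.1 of each other, and the titled groups differed by 0.00 (95% CI −0.30 to 0.30). Elovl6, which elongates the product of Fasn, gave 9.79, 9.70, 9.39 and 9.48 in the experimental arrays and 9.68, 9.66, 9.45 and 9.64 in the controls, a difference of −0.02 (95% CI −0.30 to 0.26).

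The desaturases had differences of both signs. Scd1, a desaturase of saturated fatty acids best known from liver and fat, measured 4.82, 4.996, 5.15 and 5.17 in experimental arrays 1 to 4 and 5.47, 5.49, 5.77 and 5.55 in control arrays 1 to 4. Every experimental array was below every control, with a gap of 0.29 and a difference of −0.54 (95% CI −0.82 to −0.26, adjusted p = 0.9998, limma). The signal was dim, below the median of 5.79 over all genes, and the second spot of Scd1, dimmer still with a mean of 2.94, differed by 0.24 in the other direction. Scd2, the related desaturase of embryonic and neural tissue, stayed within 13.18 to 13.55 and differed by 0.01 (95% CI −0.24 to 0.26). Fads1, a desaturase of polyunsaturated fatty acids, kept to 8.88 to 9.11 and differed by 0.04 (95% CI −0.18 to 0.25). Fads2, its partner in the same pathway, measured 7.79, 7.74, 8.50 and 8.09 in the experimental arrays and 7.83, 8.31, 8.28 and 8.11 in the controls, a difference of −0.10 (95% CI −0.54 to 0.34).

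Regulators of the SREBP system showed the widest and some of the narrowest spreads. Srebf1, which encodes the SREBP that favours fatty acid genes, measured 11.12, 11.25, 11.62 and 11.50 in experimental arrays 1 to 4 and 11.12, 11.57, 11.58 and 11.50 in control arrays 1 to 4. Numbers 1, 3 and 4 matched closely between the groups, and the difference was −0.07 (95% CI −0.43 to 0.28). Srebf2, which encodes the SREBP that favours sterol genes, measured 9.78, 10.06, 9.73 and 10.23 in the experimental arrays and 9.60, 9.86, 9.70 and 9.68 in the controls. It was higher in the experimental array of every number, with a difference of 0.24 (95% CI −0.07 to 0.56), and its second spot differed by 0.20. Scap, the escort of SREBPs to the Golgi, stayed within 10.64 to 10.99. Insig2, an anchor of Scap in the endoplasmic reticulum, stayed within 9.13 to 9.42. Insig1, the second such anchor and itself an SREBP target, had signals of 5.20, 6.10, 4.50 and 4.20 in experimental arrays 1 to 4 and of 5.43, 6.43, 5.67 and 4.76 in control arrays 1 to 4. The control was the higher in each number, and numbers 2 were the highest in each group. The difference was −0.57, but the interval from −1.64 to 0.50 was wide, and the mean signal of 5.29 was below the median of all genes. Stard4, a carrier of cholesterol between membranes, ranged from 10.12 in experimental 4 to 10.48 in control 2 and differed by −0.02 (95% CI −0.29 to 0.25).

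**Figure D3:**
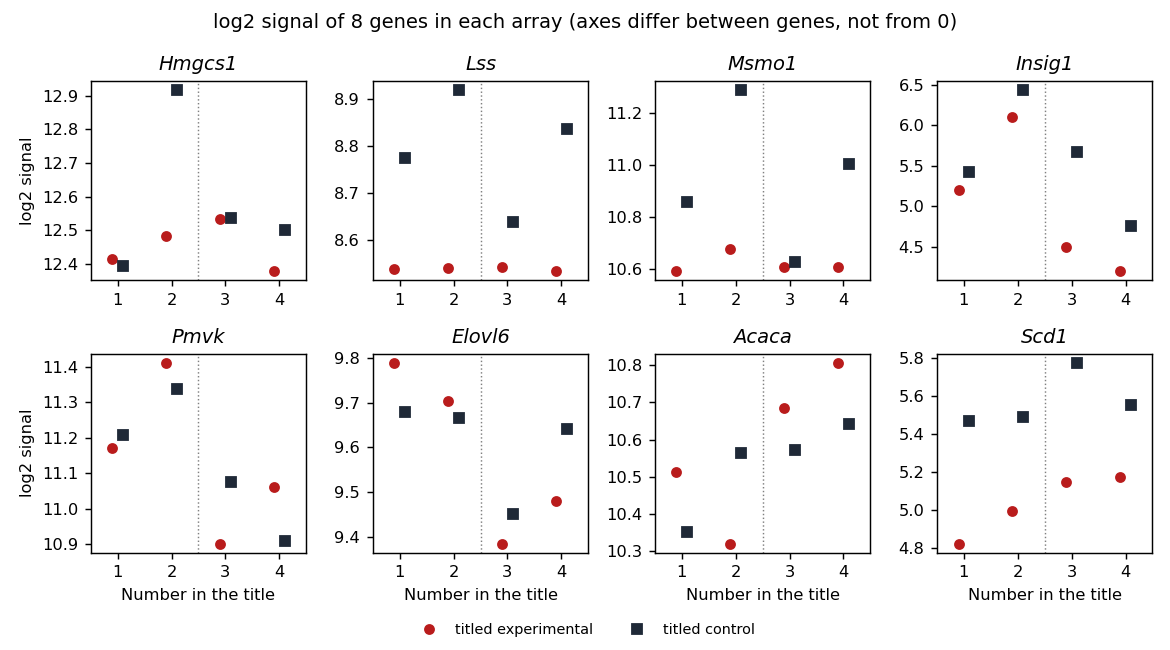
Log2 signal (vertical axis, which differs between genes and does not start at 0) of 8 genes against the number in the title, with circles for titled experimental and squares for titled control arrays. Lss and Scd1 do not overlap between the titled groups, Pmvk, Elovl6 and Acaca do not overlap between numbers 1 and 2 and numbers 3 and 4, and control 2 is the highest array for Hmgcs1, Lss, Msmo1 and Insig1.

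Non-overlap between the titled groups was counted over all members and all genes. Lower values in all experimental arrays were found for 2 of the 32 genes, Lss and Scd1, which is 6.25% beside 0.944% of all genes. Higher values in all experimental arrays were found for 0 of 32, beside 0.952%. Comparing only same-numbered arrays, the experimental array was the lower in all 4 numbers for 6 genes, Fdft1, Lss, Msmo1, Sc5d, Scd1 and Insig1, which is 18.8% beside 5.76% of all genes. It was the higher in all 4 numbers for 1 gene, Srebf2, 3.12% beside 6.00%. Of these 6 genes, 4 belong to the arm from squalene to cholesterol, namely Fdft1, Lss, Msmo1 and Sc5d. Each of those 4 had its largest difference in number 2, which holds control 2. Some differences were near 0, such as −0.003 for Fdft1 in number 1 and −0.019 for Msmo1 in number 3. With all spots averaged, the non-overlapping genes were instead Mvk and Msmo1, both lower in the experimental arrays, and 2.04% of all genes did not overlap in either direction.

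By title number, few of the lipid genes were divided without overlap in the way Etv5 was. The 4 arrays numbered 3 and 4 lay wholly below the 4 arrays numbered 1 and 2 for Pmvk and Elovl6, 2 of 32 or 6.25% beside 5.17% of all genes. They lay wholly above for Acaca, 1 of 32 or 3.12% beside 5.39%. These shares are close to those of all genes, and each gap was under 0.1. The mean of numbers 3 and 4 minus that of numbers 1 and 2 was −0.295 for Pmvk, −0.22 for Elovl6 and 0.24 for Acaca. The second spot of Pmvk also differed without overlap, by −0.27, whereas the other 6 spots of Acaca were dimmer and differed by −0.37 to 0.10. For comparison, Etv5 differed by 2.83.

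Other genes differed by number with overlap. Insig1 had the largest difference, −1.01, made up of −1.30 within the experimental and −0.71 within the control arrays. Sc5d was 0.40 higher in numbers 3 and 4, Fads2 0.33, Srebf1 0.28, Dhcr7 0.22, Scd1 0.22 and Fasn 0.20, and each of these 6 was higher within both titled groups. The first spot of Fads2 was matched by another of nearly the same brightness that differed by −0.12, and the second spot of Sc5d differed by −0.18, so these values depended on the spot. Tm7sf2 differed by −0.23. The genes just named, with Pmvk, Elovl6 and Acaca, were the members with a number difference of at least 0.2 either way. This cut only chose which genes to name. The share of all genes past it is not given, so the list is not a result about the members. The median size of the number difference was 0.127 over the 32 genes and 0.16 over all genes. These are not like sets, because 30 of the 32 lay above the median signal and dim genes vary more. The median range over the 8 arrays was 0.545 for the 32 genes. It was 0.792 for all genes and 0.485 for genes above the median signal. The number difference was not compared among genes of like signal. The sterol enzymes had a median number difference of −0.065 and the fatty acid arm of 0.028, against 0.001 for all genes.

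**Figure D4:**
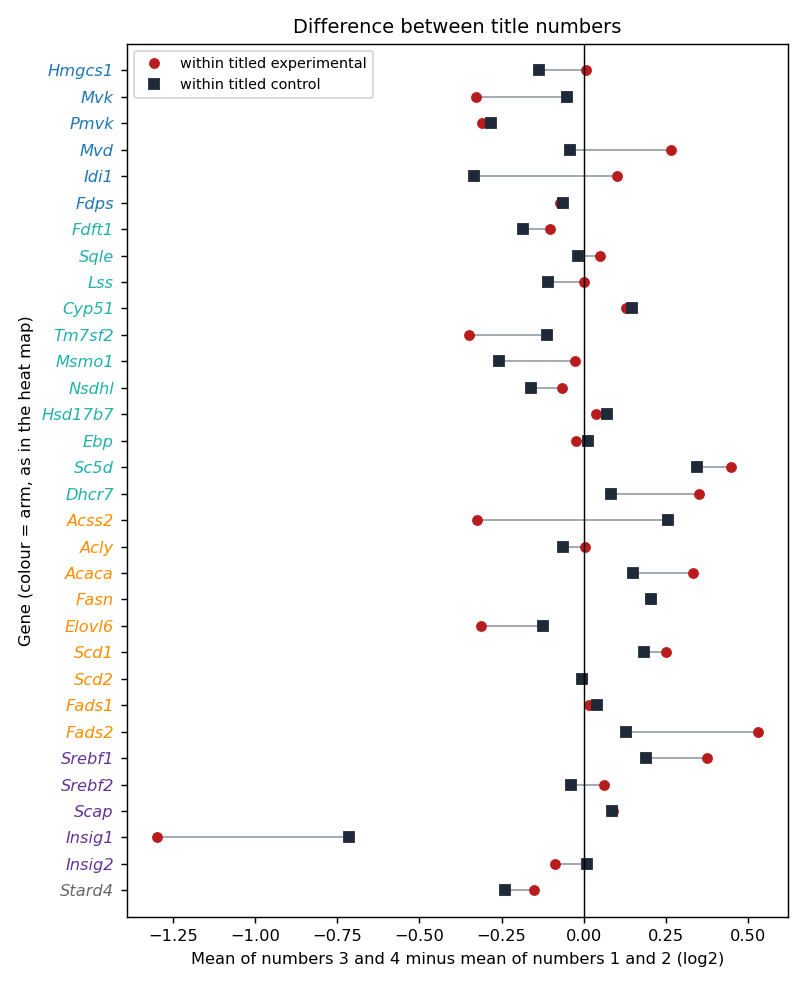
Mean log2 signal of the arrays numbered 3 and 4 minus that of the arrays numbered 1 and 2 (horizontal axis) for each gene, within the titled experimental arrays (circles) and within the titled control arrays (squares). Most genes lie within 0.4 of 0 in both groups, Insig1 lies at −1.30 and −0.71, and Sc5d, Fads2 and Srebf1 lie above 0 in both.

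One array changed this picture. Without control 2, 10 of the 32 genes did not overlap between the numbers. Pmvk and Elovl6 were again the 2 that were lower in numbers 3 and 4, 6.25% of 32 beside 7.71% of all genes. The 8 that were higher were Mvd, Cyp51, Sc5d, Dhcr7, Acaca, Fasn, Fads2 and Srebf1, beside 7.81% of all genes. Leaving out any other single array gave 3 or 4 genes, beside 13.5% to 14.3% of all genes in either direction.

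Control 2 was the array in which sterol genes were highest. It had the highest signal of the 8 arrays for 14 of the 32 genes, 43.8% beside 9.28% of all genes, and the lowest for 0. Of the 17 sterol enzymes 9 were highest there, namely Hmgcs1, Mvd, Idi1, Fdps, Fdft1, Sqle, Lss, Msmo1 and Hsd17b7. The others were Acly, Scd2 and Fads1 of the fatty acid arm, the anchor Insig1 and the carrier Stard4. Compared with the mean of the other 7 arrays, control 2 was higher for 16 of 17 sterol enzymes, with a median of 0.301 and a maximum of 0.58 for Msmo1. In the fatty acid arm it was higher for 8 of 9 genes, with a median of 0.095, and Insig1 was higher by 1.31. Over all genes this median was −0.012.

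The spots were also counted one by one. Of the 33 spots of sterol enzymes, 19 were highest in control 2, or 57.6% beside 10.1% of all named spots. Of the 14 genes highest in control 2, 9 had several spots, and for Hmgcs1, Fdft1, Lss, Msmo1 and Fads1 every spot was highest there. In the mean of the 17 sterol enzymes, the deviation from the average of all arrays was 0.262 in control 2 and between −0.085 and 0.053 in the other 7. In the fatty acid arm control 2 stood at 0.107 and control 3 at 0.116, so it did not stand apart there. These counts describe 1 lung and were noticed in the data, and no test was made of them.

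**Figure D5:**
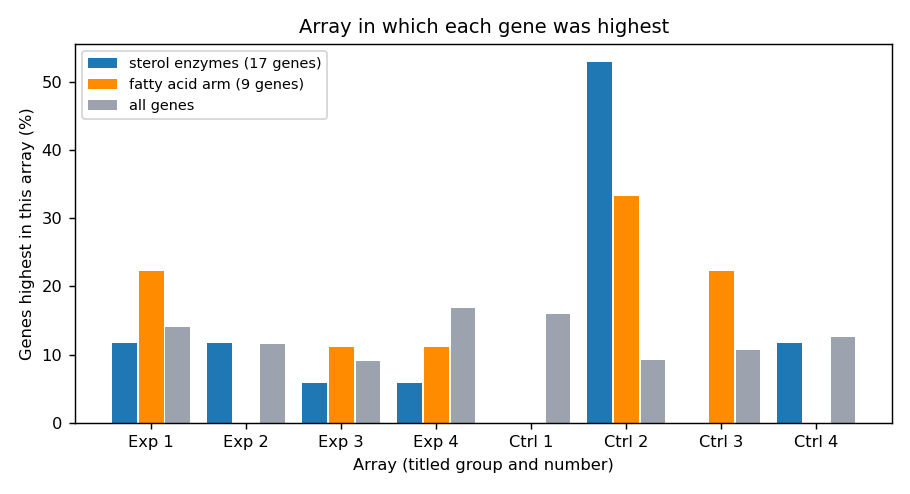
Share of genes (vertical axis, percent) whose highest signal of the 8 arrays fell in each array, for the 17 sterol enzymes, the 9 genes of the fatty acid arm and all 24583 genes. Control 2 holds 52.9% of the sterol enzymes but 9.28% of all genes, and control 1 holds none of either arm.

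Markers of other cell types and tissues were read beside this result. Proliferation genes averaged 12.22 there and 12.07 to 12.52 in the other arrays (4 of 5 measured). Markers of fat and liver, tissues rich in these enzymes, averaged 3.75 there and 3.38 to 4.92 elsewhere, and Afp, made by fetal liver, was at 3.53 in control 2 and at 7.98 in experimental 1. Smooth muscle genes averaged 11.37 in control 2, within the range of 10.74 to 11.58. The mean of 10 markers of distal epithelium and AT2 cells was 8.72 in control 2, above the 8.37 to 8.54 of the other arrays numbered 1 and 2 and below the 10.40 to 10.71 of numbers 3 and 4. The part of these markers in the sterol result was not tested.

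Promoters of these lipid genes were searched for letters that SREBPs and their partner factors bind. A link between such letters and the values in control 2 was not tested. SREBPs bind the sterol regulatory element and act together with the factor NF-Y, which binds CCAAT, and with Sp1, which binds the GC box GGGCGG. RefSeq windows of 250 bases before to 50 bases after a gene's start (GRCm38.p6) were found for 25 of the 32 genes and searched on both strands. The 9-letter element TCACNCCAC was present in 1 of the 25, Hmgcs1, or 4%, beside 1.44% of 27025 genes with a window. With N as C and an A before it, the form known from the classical element, it was present in 0 of the 25, beside 0.0999%. Of the stretch upstream of Hmgcs1 at chr13:119690179-119690257 on the + strand, 79 bases are given, with the element in capitals.
Hmgcs1: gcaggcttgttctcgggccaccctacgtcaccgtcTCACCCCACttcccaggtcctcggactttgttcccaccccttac
CCAAT was found in 21 of 25 genes, 84%, beside 41.1% of all genes, and GGGCGG in 21 of 25, 84%, beside 38.2%. A match is only a run of letters, not a site of binding, and both shares are descriptions. Members that were not highest in control 2 held them too. Mvk, Nsdhl, Ebp, Dhcr7 and Sc5d had both boxes and Fasn had CCAAT. The following are the 150 bases before the start of 4 genes, picked from those highest in control 2. CCAAT (or ATTGG on the other strand) and GGGCGG (or CCGCCC) are in capitals. They lie at chr13:8885456-8885605 (+) for Idi1, chr10:76531455-76531604 (+) for Lss, chr8:64733579-64733728 (−) for Msmo1 and chr5:28071262-28071411 (+) for Insig1.
Idi1: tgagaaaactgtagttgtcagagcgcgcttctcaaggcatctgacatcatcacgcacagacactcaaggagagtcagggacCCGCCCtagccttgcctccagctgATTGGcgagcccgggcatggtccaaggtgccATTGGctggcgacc
Lss: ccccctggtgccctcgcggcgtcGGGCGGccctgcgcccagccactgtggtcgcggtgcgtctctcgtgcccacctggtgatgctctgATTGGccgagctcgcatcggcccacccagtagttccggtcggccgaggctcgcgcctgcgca
Msmo1: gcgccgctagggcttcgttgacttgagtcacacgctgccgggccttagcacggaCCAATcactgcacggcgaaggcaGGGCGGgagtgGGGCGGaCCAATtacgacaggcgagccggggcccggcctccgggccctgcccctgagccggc
Insig1: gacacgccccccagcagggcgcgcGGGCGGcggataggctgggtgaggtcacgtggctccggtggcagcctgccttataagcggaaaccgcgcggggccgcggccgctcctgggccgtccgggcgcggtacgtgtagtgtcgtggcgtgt
Idi1 and Msmo1 each held 2 CCAAT matches in these 150 bases, Lss held 1 and Insig1 held 0. The GC box was present 2 times in Msmo1 and 1 time in each of the other 3. None of these matches overlapped another. The 4 genes with no CCAAT match in their windows were Acaca, Elovl6, Fads2 and Scap.

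Neighbouring lipid pathways placed these genes in context, and no gene of any of them passed between the titled groups. The isoprenoid branches, which draw on the same farnesyl diphosphate, had 9 of 10 genes measured, with 1 higher in numbers 3 and 4 without overlap, Rabggtb (0.36), a subunit of the transferase that attaches geranylgeranyl groups. Pdss1 and Dhdds, prenyl transferases for ubiquinone and dolichol, were 0.36 and 0.28 higher with overlap. Of the genes for SREBP processing and turnover, 9 of 10 were measured and 0 were free of overlap. Lpin1, a phosphatidate phosphatase, differed most there, by −0.79. Of 10 genes of sterol export and storage, 1 was lower without overlap, Osbpl5 (−0.37), an oxysterol binding protein relative. These counts of 0 or 1 per list stand beside 5.39% of all genes higher and 5.17% lower without overlap. In lists this short they are not read as a result.

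Several genes that use fatty acids were divided by number. Of 12 genes of phospholipid and triglyceride synthesis, 3 were higher and 3 lower in numbers 3 and 4 without overlap, beside 5.39% and 5.17% of all genes. Lpcat1, which remodels phosphatidylcholine for surfactant, had signals of 7.10, 6.90, 8.36 and 8.82 in experimental arrays 1 to 4 and of 7.24, 7.28, 8.59 and 8.47 in control arrays 1 to 4. Its numbers 3 and 4 were higher by 1.43, and its titled groups differed by −0.11. Chka, a choline kinase, was higher by 0.61 and Dgat2, which completes triglycerides, differed by −0.65, both without overlap. Of 14 genes of fatty acid elongation and activation, 3 were higher and 1 lower without overlap. The largest were Acsl4, a ligase that activates long polyunsaturated fatty acids (0.71), and the elongase Elovl7 (0.33). Mid1ip1 (0.129) and Me1 (−0.165) were also counted and differed less. Of 10 genes of fatty acid oxidation, 0 were higher and 3 lower without overlap, among them Cpt1a, the gate to mitochondrial import (−0.35), and Acadm, a dehydrogenase of medium chains (−0.28). Acadl was counted at a difference of only −0.095. Its lowest value in numbers 1 and 2 was 10.607 and its highest in numbers 3 and 4 was 10.605. No minimum gap was set for these counts. Over the same split, 9 of 10 markers of distal epithelium and AT2 cells were higher without overlap. Among the 32 synthesis genes the corresponding counts were 1 higher and 2 lower.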

How the data were processed

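Amplified, Cy3-labelled RNA of left lung lobes was run on 1-colour Agilent arrays. The authors corrected the background with normexp on negative control spots and quantile-normalized the logged signals with limma. The deposited values are these log2 signals for 62976 spots per array. Base 2 was read from their range of 2.00 to 16.00, and the median of each array was 4.43. Detection above background could not be called from them, and no depth applies to arrays, whose number (8) limits the precision. All value columns were used, and 2 spots lacking a value on 1 array were left out.

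Spots were named through the platform annotation (43941 named, 19035 unnamed), with symbols updated through RefSeq accessions (33704 matched, 1424 updated). Each of 24583 genes was represented by its brightest spot, after the study's rule. Titled groups were compared with lmFit and eBayes (limma 3.58.1, R 4.3.3), unpaired and two-sided, with Benjamini-Hochberg adjustment over all genes. The fit was tested on simulated data. Title numbers were described without a test. Controls were littermates, but the sources used here do not say which lung came from which litter, so p-values cover only the spread among the 8 arrays, which may be partly technical. Same-numbered arrays deviated together from their group means (correlations across genes of 0.109, 0.146, 0.124 and 0.117, against at most 0.101 for other numbers). The lead was small for number 1 (0.109 against 0.101), and arrays on the same side of the number split also share that split. These correlations therefore cannot tell whether the numbers pair the arrays. A fit with the number as a block was an alternative. The members, lists, motifs and alternatives were chosen with earlier results of these data known. All 32 members were named, and of each pathway list up to 3 genes with the largest difference between numbers, and of cell type lists up to 3 of the highest mean.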

Additional observations from a re-analysis of the deposited data

Results flagged for a closer look

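Within each titled group of 4 arrays, the highest or lowest array was set against the other 3 for the 32 genes and for the means of both arms, 68 groups in all. In 3 of them 1 array lay far from the others, and chance gives about 1 in 20. Cyp51 was at 8.93 in experimental 3, above 8.70 to 8.72 in the other experimental arrays. Dhcr7 was at 7.65 in experimental 4, above 6.997 to 7.11. Elovl6 was at 9.45 in control 3, below 9.64 to 9.68 in the other controls. Without control 3, Elovl6 still did not overlap between the numbers.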

How the results depend on the processing

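With title number as a replicate block, the limma fit also called 0 of 32 members and 0 genes. At an unadjusted p under 0.05 it had 4 of 32 members (Insig1, Lss, Sc5d and Scd1), beside 1182 of all 24583 genes. Without the block these counts were 2 and 876, and no call after adjustment changed. No member passed with averaged spots, a filter on dim genes, the block, a trended robust prior or each array left out, and 37 of these 382 member values, from 15 members, changed sign. An ordinary t-test, without limma's moderation, also called 0 members after adjustment. This ordinary t-test gave 788 genes at an unadjusted p under 0.05 and limma 876. The study ranked genes on a moderated statistic, to which limma's fit is the closer. Members not overlapping by title number were 3 (10.6% of all genes in either direction), 0 with a minimum gap of 0.1 (5.0%) and 0 with a minimum gap of 0.2 (2.60%), and leaving out 1 array each gave 3 to 10 (13.5% to 15.5%), with 10 without control 2. Members not overlapping by titled group were 2 (1.90% of all genes), and 2 to 4 leaving out 1 array each (3.92% to 4.43%), with 4 (Idi1, Lss, Msmo1 and Scd1) without control 3. The sterol median between titled groups ran from −0.188 to −0.037, lowest in size without control 2, and was −0.042 without both arrays numbered 2, a repeat chosen after seeing the data. The fatty acid median ran from −0.051 to 0.029 and was 0.059 without both. Averaging spots left 14 members, 10 of them sterol enzymes, highest in control 2. Signals near the lowest value are compressed, which touches Scd1 and Insig1.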
